A study of Mus musculus with 8 samples.

Results

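Cd209a-positive type 2 dendritic cells were examined among immune cells sorted from the mouse brain. A cell was counted when its barcode carried at least 1 Cd209a UMI (a UMI, unique molecular identifier, stands for 1 captured RNA molecule), at least 1 UMI of Clec10a or Mgl2, at least 1 UMI of the MHC class II gene H2-Aa, and no UMI of Siglech (plasmacytoid dendritic cells), C1qa (macrophages and microglia), Cd3e (T cells) or Cd79a (B cells). The cells were thus chosen by measured counts of these 8 genes. Of 46314 quality-filtered barcodes that could be assigned to 1 hashtag, 510 met this rule, a share of 1.10% (95% exact binomial interval 1.01 to 1.20). The levels of the genes of the rule are therefore given as a description without a test.

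CD45.2+ cells were sorted from perfused brain parenchyma, labelled with hashtag antibodies and profiled with a 5′ droplet kit, 1 library per condition. WT (C57BL/6J) mice and App NL-G-F mice, whose own App locus carries a humanized amyloid-β sequence with the Swedish, Arctic and Iberian mutations in every cell, were each studied under 4 conditions, and the labels give an age of 16 weeks. Control mice drank water, acute colitis mice received 2% dextran sulfate sodium (DSS) in water for 1 week, chronic colitis mice went through 3 cycles of 2% DSS alternating with water in 5-day periods, and food allergy mice were sensitized with ovalbumin in alum and then challenged by mouth. All mice received an intravenous anti-CD45 antibody before perfusion, and no count records which of the sorted cells it had stained. Each library pooled cells marked with up to 4 hashtags, and since the labels do not tie a hashtag to an animal, p-values below measure only the spread between libraries or between hashtag groups.

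Conventional dendritic cells take up antigen, carry it to lymph nodes and show it to T cells. Type 1 cells, which depend on IRF8 and BATF3, are known for cross-presentation to CD8 T cells, whereas type 2 cells, which use IRF4 and carry SIRPα and a set of C-type lectins, are known for presenting antigen on MHC class II to CD4 T cells. Cd209a encodes a lectin of the DC-SIGN family and Clec10a and Mgl2 encode the galactose-type lectins MGL1 and MGL2, which bind sugars on microbes and on host glycoproteins. In the brain such cells are known from the meninges and the choroid plexus, and monocytes that enter inflamed tissue can acquire several of the same markers.

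The lectin genes of the rule lie in families of related copies. In GRCm38, Clec10a lies at chr11:70156197-70170834 on the plus strand and Mgl2 beside it at chr11:70130329-70137550 on the same strand. Their coding sequences shared 840 of 913 aligned bases (92.0%), so reads from the most alike stretches may not tell the copies apart. The rule took a UMI of either one. The first 60 coding bases of both genes in the reference are shown because the rule takes a UMI of either gene and a 5′ kit reads from this end of the transcript. Lower case letters are shared and capitals are the bases that differ or have no partner in the other gene, 12 in Clec10a and 19 in Mgl2, so this stretch is less alike than the coding sequence as a whole.
Clec10a: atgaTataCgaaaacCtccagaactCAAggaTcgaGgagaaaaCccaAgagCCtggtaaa
Mgl2: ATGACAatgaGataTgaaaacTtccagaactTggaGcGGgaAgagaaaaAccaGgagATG
Cd209a, at chr8:3743397-3748984 on the minus strand, has its paralogs Cd209b, Cd209c, Cd209d and Cd209e in the same stretch of chromosome 8, and its coding sequence matched theirs at 69.3% to 74.4% of aligned bases. Tnfsf9, the gene of the costimulatory ligand 4-1BBL, lies at chr17:57105325-57107757 on the plus strand and was the only one of the 4 proposed markers outside the rule.

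The libraries held 4479 to 6747 passing barcodes with a median of 2647 to 3968 UMIs. In the WT food allergy library 74.7% of quality-filtered barcodes met the hashtag rule, against 87.2% to 94.5% in the others. The 30 hashtag groups fell into a low set of 14 and a high set of 16 by the summed immediate-early gene level of their T cells (774 to 1923 against 3704 to 7188 CPM, UMIs per 1000000 gene UMIs), and this split was not a label of the study. Of the 510 cells, 479 (93.9%) came from the high set, where they made up 1.60% of 30014 barcodes (exact interval 1.46 to 1.74), against 0.190% of 16300 in the low set (0.129 to 0.270). The high set supplied 81.1% of WT barcodes but 51.2% of App NL-G-F barcodes, so each comparison of shares below is also given within it. A total of 1278 passing barcode sequences (2.84%) occurred in more than 1 library, and 1 of them belonged to a Cd209a-positive type 2 dendritic cell in both.

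The rule narrowed the cells in steps. A Cd209a UMI was present in 1584 barcodes, 1184 of these also had Clec10a or Mgl2, and 1026 of these had H2-Aa. Of the 1026, 272 were left out by a Siglech UMI, 186 by C1qa, 73 by Cd3e and 64 by Cd79a, some by more than 1 gene. Siglech-positive cells were thus the main neighbouring population, and 36.0% of all Siglech-positive, Cd3e- and Cd79a-negative cells had a Cd209a UMI. In cell types that should lack the gene, the share with a Cd209a UMI was 0.763% of Cd3e-positive cells (median depth 2995.5 UMIs) and 0.729% of Cd79a-positive cells (2542 UMIs). These values give the level that free RNA and mixed droplets can reach at the depth of lymphocytes. In myeloid cells gated without a Cd209a condition it was 5.36% of type 1 dendritic cells (9634.5 UMIs), 6.12% of monocytes (13018 UMIs) and 10.9% of macrophages (3440 UMIs). Whether those cells express the gene was not tested.

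The retained cells carried 528 to 42677 UMIs (median 8173.5) and a median of 2384.5 genes, with 17 Cd209a UMIs per cell at the median (quartiles 7 and 30) and 124 H2-Aa UMIs. Cd209a was counted 10 or more times in 356 cells (69.8%) and exactly 1 time in 22 (4.31%). Just inside the rule, the 22 cells with 1 Cd209a UMI and the 21 with 2 had Tnfsf9 levels of 307 and 255 CPM, close to the 368 CPM of the 467 cells with 3 or more. Just outside it, the 202 cells that met every other condition but had no Cd209a UMI had 81.1 CPM of Tnfsf9 and 1379 CPM of the monocyte gene Ly6c2, against 283 CPM of Ly6c2 in cells with 3 or more. Both Clec10a and Mgl2 were detected in 251 cells (49.2%), Clec10a alone in 200 (39.2%) and Mgl2 alone in 59 (11.6%).

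The level of a gene in a library was taken as its CPM over the summed UMIs of the Cd209a-positive type 2 dendritic cells of that library. Cd209a stood at 2854, 2445, 1669 and 2019 CPM in WT mice (control, acute, chronic and allergy, the order kept below) and at 3103, 2391, 1749 and 1744 CPM for App NL-G-F. Both control libraries were the highest of their genotype. Clec10a followed with 847, 613, 464 and 635 CPM in WT mice and 954, 601, 580 and 676 CPM for App NL-G-F, again with both controls highest. Mgl2 stood at 989, 1011, 435 and 953 CPM in WT mice and 1058, 863, 765 and 621 CPM for App NL-G-F, and its lowest value was in the WT chronic colitis library.

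Tnfsf9, which the rule did not use, was detected in 315 cells (61.8%), against 3.87% of Cd3e-positive, 1.19% of Cd79a-positive, 7.94% of type 1 dendritic, 19.0% of monocyte, 11.2% of macrophage and 10.1% of Siglech-positive cells. Its level was 509, 363, 570 and 322 CPM in WT mice and 393, 161, 450 and 260 CPM for App NL-G-F, so that the genotypes overlapped. Tnfsf9 was proposed as a marker with results of these data known, so its level describes the cells and is no independent check of the label.

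Among genes that define conventional dendritic cells, Flt3 (the receptor for the growth factor FLT3 ligand) was detected in 51.0% of cells at 82.0 to 161 CPM (median 96.3), and Zbtb46, a transcription factor of the lineage, in 31.6% at 26.4 to 60.4 CPM (median 44.4). Irf4, the factor associated with type 2 cells, was detected in 23.5% at 16.8 to 58.0 CPM (median 29.4), while Sirpa was detected in 72.9% at 119 to 236 CPM (median 183). Ccr2, the chemokine receptor used by monocytes and their progeny, was detected in 82.0% of cells at a median of 414 CPM. Several genes that monocytes or macrophages also express were common, with Lyz2 in 88.8% of cells, Csf1r in 53.9% and Fcgr1 in 27.8%. The neutrophil genes S100a9 and S100a8 were detected in 22.2% and 20.0%, but their summed level depended on the library. It was 6.88 CPM in WT control, and 40.3, 74.6 and 43.0 CPM in the control, chronic and allergy libraries of App NL-G-F. Elsewhere it ran from 2968 CPM (WT acute colitis) to 25458 CPM (WT food allergy). Whether the Cd209a-positive cells themselves express S100a8 and S100a9 was not tested. Genes that define lymphocytes, microglia or other dendritic cells were sparser. Xcr1 was present in 9 cells (1.77%), Clec9a in 47 (9.22%) and Ccr7, the receptor of migrating dendritic cells, in 11 (2.16%). Cd3d was found in 14, C1qb in 31 (6.08%) and the B cell gene Cd79b in 37 (7.3%). The microglial gene Sall1, the macrophage gene Mertk and the B cell gene Ms4a1 were found in 0 of 510 cells. At 3 cells this allows up to 0.588% of cells with a UMI and sets no limit on cells that express these genes.

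Lectins and receptors outside the rule varied in how widely they were detected. Klrd1, which encodes CD94 and is best known from NK cells, was detected in 71.0% of cells at 213 to 380 CPM (median 337), and Clec4b1, a C-type lectin, in 67.5% at 174 to 316 CPM (median 230.1). Cd209c was detected in 50.0% of cells, at 215, 127, 113 and 119 CPM in WT mice and 202, 124, 102 and 83.6 CPM for App NL-G-F, with both controls above every colitis and allergy library. Cd209d was found in 18.4% of cells at 21.1 to 161 CPM. Crlf2, which encodes the receptor for the cytokine TSLP, was detected in 78.6% of cells at 180 to 279 CPM, and Il1b, the gene of interleukin-1β, in 64.5% at 497 to 1908 CPM.

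**Figure D1:**
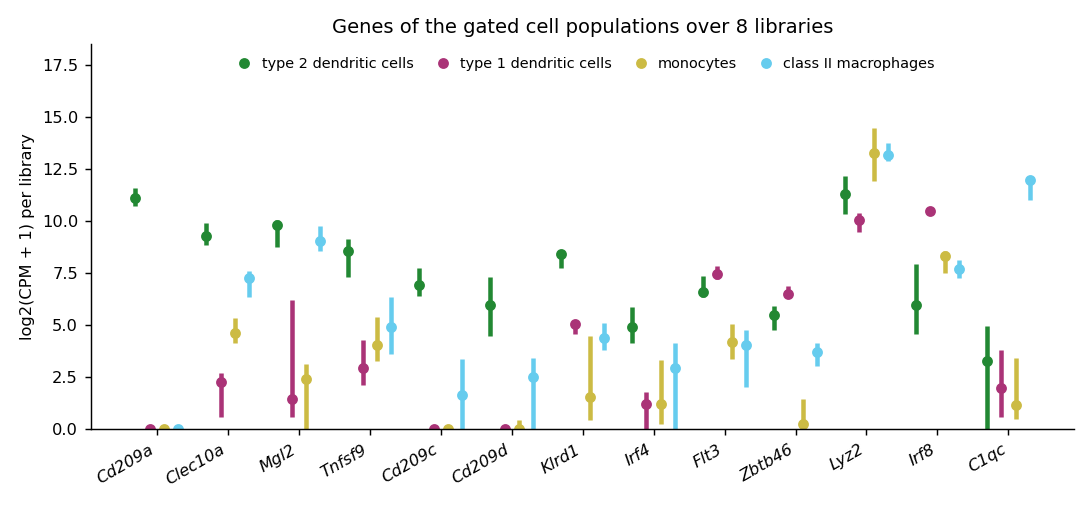
Levels of 13 genes in Cd209a-positive type 2 dendritic cells and in the 3 comparison gates, as log2(CPM + 1) of the UMIs summed per library; each point is the median of 8 libraries and the line runs from the lowest to the highest library. Tnfsf9, Cd209c, Cd209d and Klrd1 sit higher in the Cd209a-positive cells than in all 3 other gates, Irf8 is highest in type 1 dendritic cells, Lyz2 in monocytes and macrophages, and C1qc in macrophages.

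The 510 cells were not uniform, and 4 genes were used to describe how they varied. These splits use the cells' own counts, so the differences are descriptions without a test. Cells with an Mgl2 UMI (310) and without one (200) had near-equal median depth (8116 and 8234 UMIs). Ccl17, the chemokine that attracts CCR4-bearing T cells, stood at 144 CPM in the first and 9.30 CPM in the second, and was higher in the first in 8 of 8 libraries. Cd209a (2740 against 1539 CPM) and Cd209c (183 against 61.3 CPM) were also higher beside Mgl2 in 8 of 8 libraries. Cells without Mgl2 carried more of the monocyte genes Ly6c2 (512 against 139 CPM) and Plac8 (654 against 185 CPM), and more Cd209d (109 against 60.8 CPM), in 8 of 8 libraries each.

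A Ly6c2 UMI was present in 114 cells (22.4%), and in 12.9% after each cell was thinned to 1500 UMIs, which 502 of the 510 reached. Those 114 cells (median 9434 UMIs) and the 396 without it (7926 UMIs) differed across the monocyte genes in every library. The lysozyme gene Lyz2 stood at 5701 against 1836 CPM, F13a1 (coagulation factor XIII) at 437 against 39.3 CPM and Csf1r (the M-CSF receptor) at 214 against 119 CPM, each higher in 8 of 8 libraries. The lectins ran the other way. Cd209a stood at 1351 against 2615 CPM, Mgl2 at 293 against 1106 CPM and Clec10a at 340 against 786 CPM, and Ccl17 at 5.44 against 123 CPM, lower in 8 of 8 libraries for Cd209a and Ccl17. Cd209d was the exception among the lectins, at 137 against 57.7 CPM and higher beside Ly6c2 in 8 of 8 libraries. Flt3 was alike on both sides, at 106 and 105 CPM.

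Tnfsf9-positive cells (315) carried 1495 CPM of Il1b against 487 CPM in the 195 cells without Tnfsf9, a difference seen in 8 of 8 libraries, while Cd209a was similar (2235 and 2299 CPM). The proliferation gene Mki67 was detected in 83 cells (16.3%; 4.98% after thinning), which were deeper than the rest (median 11930 against 7901 UMIs). These cells had lower levels of Cd209a (1488 against 2505 CPM) and Cd209c (59.4 against 158 CPM) in 8 of 8 libraries, and 37.3% of them had a Ly6c2 UMI, against 19.4% of the others.

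The number of these cells was then compared between the brains of the genotypes. In the WT libraries they made up 1.16% of barcodes in control (78 of 6747, exact interval 0.915 to 1.44), 2.10% in acute colitis (94 of 4479, 1.70 to 2.56), 0.788% in chronic colitis (42 of 5327, 0.569 to 1.06) and 2.23% in food allergy (102 of 4584, 1.82 to 2.69). In App NL-G-F the shares were 0.597% (40 of 6700, 0.427 to 0.812), 1.15% (72 of 6282, 0.898 to 1.44), 0.679% (39 of 5742, 0.483 to 0.927) and 0.666% (43 of 6453, 0.483 to 0.897). The App NL-G-F library was below the WT library of the same treatment in 4 of 4 pairs, but the WT chronic colitis library overlapped the App NL-G-F range. The means were 1.57 ± 0.705% for WT against 0.772 ± 0.252% for App NL-G-F (SD, n = 4 libraries each), a difference of -0.795 percentage points that did not pass the exact two-sided permutation test (p = 0.0571; the smallest p of this design is 0.0286). Within the high hashtag set the means were 1.77 ± 0.759% and 1.43 ± 0.571%, a difference of -0.334 points (exact permutation p = 0.486, n = 4 each). There the App NL-G-F library was below WT in control (1.15 against 1.70%) and food allergy (1.24 against 2.46%). It was above WT in acute colitis (2.28 against 2.18%) and chronic colitis (1.06 against 0.733%). The share of each library in that set, 55.8 to 96.4% for WT against 48.8 to 57.4% for App NL-G-F, cannot be told apart from genotype. Fewer cells of a type and more cells of other types give the same share, and these counts cannot separate them.

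**Figure D2:**
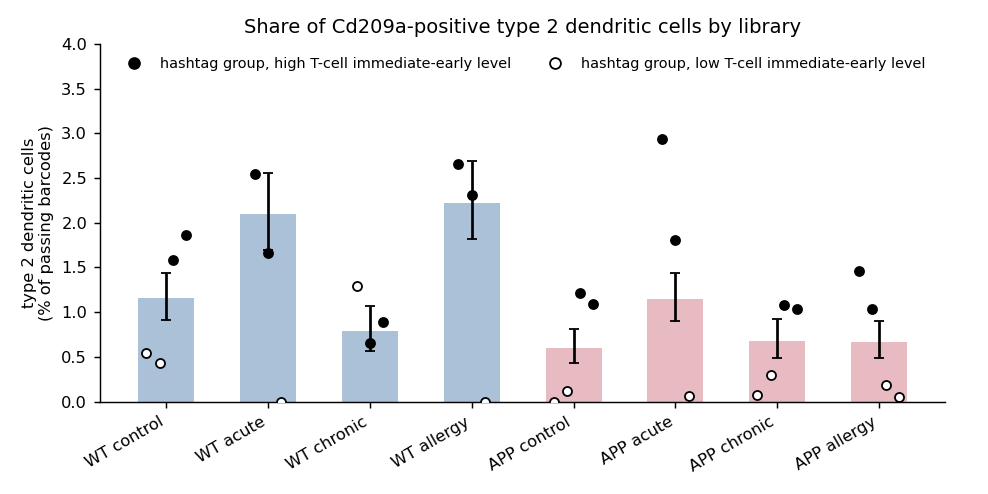
Share of Cd209a-positive type 2 dendritic cells among passing barcodes by library (bars, percent, with 95% exact binomial intervals) and by hashtag group of at least 100 barcodes (points, filled for the high and open for the low immediate-early set). WT acute colitis (2.10%) and WT food allergy (2.23%) have the tallest bars, and the low-set groups lie near 0 in most libraries while the high-set groups lie between 0.659 and 2.93%.

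Treatments were compared with the control of the same genotype over hashtag groups of at least 100 barcodes. The WT control groups averaged 1.11 ± 0.721% (SD, n = 4), against 1.40 ± 1.29% in acute colitis (n = 3), 0.949 ± 0.322% in chronic colitis (n = 3) and 1.65 ± 1.44% in food allergy (n = 3). App NL-G-F controls averaged 0.607 ± 0.637% (n = 4), against 1.60 ± 1.45% in acute colitis (n = 3), 0.623 ± 0.516% in chronic colitis (n = 4) and 0.681 ± 0.677% in food allergy (n = 4). The groups overlapped in all 6 comparisons. The study's own account gives fewer animals than hashtag groups for App NL-G-F chronic colitis, so groups may share an animal, and p-values over groups may then be too small. The differences between the means over both sets ran from -0.158 points for WT chronic colitis to 0.995 points for App NL-G-F acute colitis. Their exact permutation p-values were 0.286 to 0.943, and 0.943 for each after Benjamini-Hochberg adjustment over the 6. The smallest p over both sets is 0.0571 with 3 treated groups and 0.0286 with 4. Counted among myeloid cells instead of all barcodes, the difference between group means turned to -3.81 points in WT acute colitis (exact permutation p = 0.514). In WT food allergy it turned to -5.77 points (exact permutation p = 0.0571, adjusted p = 0.343 over the 6). By whole library this denominator gave 6.79% in WT control (75 of 1105), 8.04% in acute colitis (86 of 1069) and 4.80% in food allergy (92 of 1917). The library share thus rose in WT acute colitis and fell in WT food allergy. Over all barcodes of the high set the library shares were 1.70, 2.18, 0.733 and 2.46% in WT mice against 1.15, 2.28, 1.06 and 1.24% for App NL-G-F. There the acute colitis library remained above its control in both genotypes.

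To place the cells among the other myeloid cells of the brain, their summed counts were compared with those of 3 gates from the same 8 libraries, with the library as a block in edgeR's quasi-likelihood test. The type 1 dendritic cell gate (Xcr1 or Clec9a, H2-Aa, and none of Cd209a, Siglech, C1qa, Cd3e or Cd79a) held 1359 cells, and 3135 of 8853 genes tested (35.4%) differed at a Benjamini-Hochberg adjusted p under 0.05, 1585 higher (17.9%) and 1550 lower (17.5%) in the Cd209a-positive cells. The genes that were required or excluded by either gate are left out of what follows.

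C-type lectins and Fc receptors were higher for 16 of 20 tested genes and lower for 3, with a median log2 difference of 2.65 against -0.02 over all genes. Cd209c and Cd209d had no UMI in type 1 dendritic cells, and on a floor of 3 UMIs over the gate they were at least 591-fold and at least 353-fold higher in the Cd209a-positive cells. The inhibitory lectin gene Clec4a3 stood at 76.5, 126 and 193 CPM in the lowest, median and highest library against 0, 1.34 and 1.97 CPM, a log2 difference of 6.48 (SE 0.20, adjusted p = 3.38e-14 by edgeR). The groups did not overlap. Klrd1 differed by 3.25 (SE 0.09, adjusted p = 8.92e-15 by edgeR), with at most 37.5 CPM in a type 1 library. Fcer1g, the signalling chain that several of these receptors share, differed by 2.45 (SE 0.06). Ly75 (DEC-205), a lectin of type 1 cells, was one of the 3 lower genes, with a difference of -4.23 (SE 0.29).

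Of the genes listed for type 2 identity, 13 of 19 were higher and 4 lower. Sirpa stood at 119, 183 and 236 CPM against 0, 3.58 and 11.9 CPM in type 1 cells, with a log2 difference of 4.99 (SE 0.28, adjusted p = 6.99e-11 by edgeR). Irf4 differed by 4.45 (SE 0.29), Zeb2 by 4.51 (SE 0.20) and Csf1r by 4.26 (SE 0.20), and none of these overlapped between the gates. The 4 lower genes were Flt3 (-0.80, SE 0.10), Zbtb46 (-1.13, SE 0.11), Notch2 (-0.95, SE 0.09) and Id2 (-2.20, SE 0.14), each lower in 8 of 8 libraries. All 10 tested genes of the type 1 list were lower. Irf8, the factor on which type 1 cells depend, stood at 22.6, 62.5 and 244 CPM against 1242, 1447 and 1623 CPM (log2 difference -4.30, SE 0.27, adjusted p = 3.08e-10 by edgeR), Itgae (CD103) differed by -5.89 and the double-stranded RNA sensor Tlr3 by -4.94.

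Of the cytokines 5 of 10 tested were higher and 3 lower. Il1b stood at 497, 1124 and 1908 CPM against 33.9, 113 and 172 CPM in type 1 cells (log2 difference 3.39, SE 0.19, adjusted p = 8.19e-11 by edgeR), and Tnf differed by 3.40 (SE 0.23). Among 12 chemokines 7 were higher, including Ccl9 (4.70, SE 0.29) and Cxcl2 (3.48, SE 0.34), and 2 were lower, including the CXCR3 ligand gene Cxcl9 (-2.34, SE 0.31). The receptor list for type 2 and related cytokines had 8 of 13 genes higher and none lower at adjusted p under 0.05 by edgeR. Il2rg (the common γ chain) differed by 3.04 (SE 0.16), Il1rl1 (the IL-33 receptor) by 2.87 (SE 0.36), Il13ra1 by 1.28 (SE 0.12), Il4ra by 1.23 (SE 0.16) and Crlf2 by 0.92 (SE 0.08). The mature and migratory list went the other way, with 7 of 11 genes lower and 1 higher. Ccr7 (-2.83, SE 0.42) and the actin-bundling gene Fscn1 (-3.99, SE 0.38) were among the 7, and the costimulatory ligand Cd86 was also lower (-1.76, SE 0.17). Of 12 class II presentation genes 6 were higher and 2 lower, with H2-DMb2, which edits class II peptides, at 1.12 (SE 0.08) and its inhibitor H2-Ob at -1.20 (SE 0.10). By size of the difference, the genes that stood highest against type 1 cells included Mrc1 (mannose receptor, 6.70), Abca9 (5.91), Tnip3 (5.32), Ptgs2 (cyclooxygenase-2, 5.22) and Pltp (5.13), and those lowest included Gpr141b (-6.64), Cd36 (-6.63) and Snx22 (-6.51).

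The monocyte gate (Ly6c2, Ccr2 and Csf1r, and none of 8 excluded genes, Cd209a among them) held 2085 cells, of which 71.4% came from the high hashtag set, against 93.9% of the Cd209a-positive cells. Of 8807 genes 4289 (48.7%) differed, 2126 higher (24.1%) and 2163 lower (24.6%) in the Cd209a-positive cells. With scaling by library size only the same test gave 1508 higher and 3340 lower, and the median log2 difference over all genes moved from -0.03 to -0.25, so small differences are read relative to that shift.

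All 12 class II presentation genes tested were higher than in monocytes (median log2 difference 5.63), and the monocyte gate, unlike the dendritic cell rule, did not require H2-Aa. Of these, H2-Eb1 differed by 7.50 (SE 0.71, adjusted p = 2.04e-06 by edgeR). All 7 costimulation genes tested were higher too (median 2.86), among them Tnfsf9 at 161, 378 and 570 CPM against 8.59, 15.4 and 41.1 CPM (log2 difference 4.61, SE 0.22, adjusted p = 4.86e-09 by edgeR), Icosl (2.86) and Cd40 (2.37). Of the type 2 identity list 12 of 17 genes were higher, 1 lower and 4 not called (median 0.55), and 3 of the dendritic cell genes in it are given. Zbtb46 stood at 26.4, 44.4 and 60.4 CPM against 0, 0.188 and 1.78 CPM (log2 difference 6.97, SE 0.40, adjusted p = 2.64e-08 by edgeR), Flt3 at 82.0, 96.3 and 161 CPM against 9.23, 17.3 and 32.8 CPM (2.84, SE 0.22), and Itgax (CD11c) differed by 7.14 (SE 0.23). Ccl17 and Cd209c had no UMI in the monocyte gate and were at least 1023-fold and at least 1527-fold higher on the floor of 3 UMIs. Other high genes were Slamf9 (7.89), Klrb1b (7.64), Klrd1 (7.33) and Tnip3 (7.13).

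Lower than in monocytes were 9 of 14 genes of the monocyte list and 21 of 23 cell cycle genes (median -1.59), with 2 and 0 higher. Lyz2 stood at 1295, 2510 and 4601 CPM against 3846, 9850 and 22430 CPM, a log2 difference of -1.84 (SE 0.24, adjusted p = 3.5e-05 by edgeR), and here the ranges of the gates overlapped although every library was lower. F13a1 differed by -3.16 (SE 0.25), the fibronectin gene Fn1 by -2.86 (SE 0.23) and Mki67 by -1.41 (SE 0.19). The granule protease genes of early granulocyte and monocyte progenitors were lowest, with Elane at -6.25 (SE 0.71), Mpo at -5.60 (SE 0.90) and Prtn3 at -5.34 (SE 0.71). The monocyte gate excluded none of these genes and so can hold such progenitors. Their part in the cell cycle difference was not tested. Csf1r and Ccr2, which the monocyte gate required, are left out of this comparison.

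The class II macrophage gate (C1qa, H2-Aa and Mrc1 or Pf4, without Cd209a, Siglech, Cd3e or Cd79a) held 1017 cells with a median of 3194 UMIs, and 2794 of 6810 genes (41%) differed, 1296 higher (19%) and 1498 lower (22%). This gate shared Mgl2 with the Cd209a-positive cells, at 373, 533 and 862 CPM against 435, 908 and 1058 CPM. All 13 tested macrophage and microglia genes were lower, led by C1qc (-8.61, SE 0.26) and C1qb (-7.63, SE 0.24), whose partner C1qa the rule excluded, and by Apoe at 16.6, 61.2 and 176 CPM against 7944, 15840 and 22590 CPM (log2 difference -7.61, SE 0.31, adjusted p = 1.22e-12 by edgeR). Mertk, an efferocytosis receptor, had 353 UMIs in macrophages and none in the Cd209a-positive cells, at least 120.5-fold lower.

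Chemokines divided the gates. Of 15 tested, 9 were lower and 2 higher than in macrophages. Ccl12 (-7.60, SE 0.24), Ccl2 (-3.44, SE 0.22) and Cxcl2 (-2.85, SE 0.20), which recruit monocytes and neutrophils, were lower, and Ccl17 was higher at 4.78, 73.3 and 162 CPM against 0, 2.00 and 29.7 CPM (log2 difference 3.87, SE 0.48, adjusted p = 3.34e-06 by edgeR). Lectins and Fc receptors were lower for 13 of 18 and higher for 3. Cd209c (5.03, SE 0.25) and Cd209d (4.09, SE 0.31) were among the 3, and Fcgr3 (-2.12, SE 0.14) among the 13. The Cd209 family was divided. Cd209f had 2 UMIs in the Cd209a-positive cells against 341 in macrophages. Cd209g had 0 against 124, at least 42.3-fold lower on the floor of 3 UMIs. Toll-like receptor and sensing genes were lower for 8 of 11, among them Tlr7 (-3.57, SE 0.34). Class II presentation genes were higher for 9 of 12, led by H2-DMb2 (3.84, SE 0.15), and lower for the proteases Lgmn (-2.55, SE 0.12) and Ctss (-0.54, SE 0.10). The type 2 identity list was divided, with 7 of 18 genes higher, 5 lower and 6 not called (median 0.18). Its 22 listed genes summed to a library median of 2961 CPM, below the 4699 CPM of macrophages and the 3501 CPM of monocytes. Type 1 cells had 2090 CPM, and the monocyte gate used 2 of the 22 genes. Klrd1 (3.97), Tnfsf9 (3.31), Flt3 (2.93) and Zbtb46 (2.02) were higher than in macrophages, as they were against monocytes. Ddr1 (5.36), L1cam (4.19), Spint1 (3.82) and Bhlhe40 (3.42) were higher outside the lists. After each cell was thinned to 1500 UMIs fewer genes could be tested, and 996, 1221 and 1170 genes were called in the 3 comparisons, with every named gene that could still be tested keeping its direction and call.

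**Figure D3:**
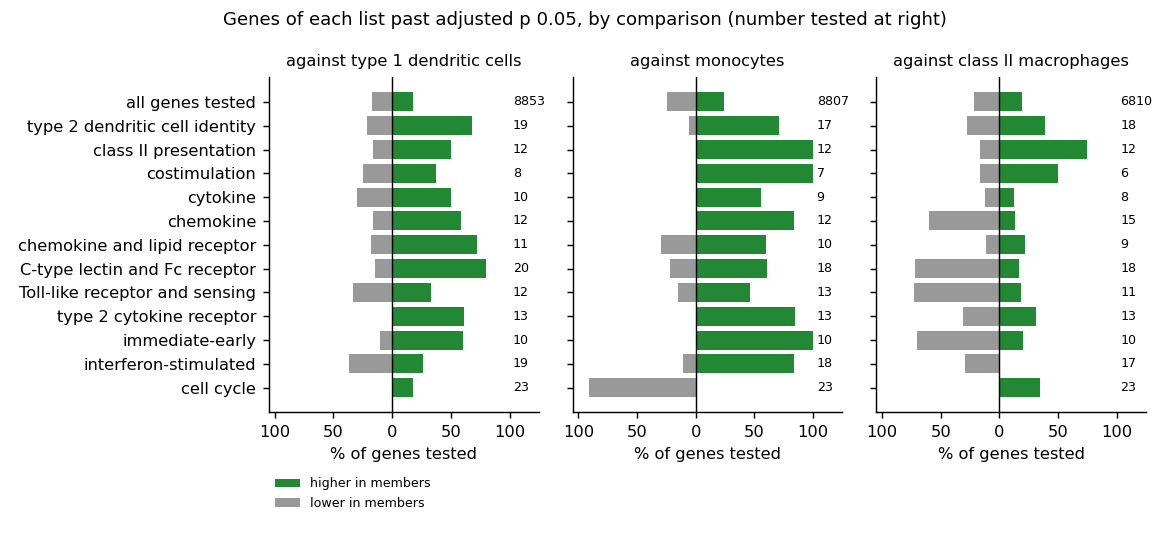
Percent of the tested genes of each list that were higher or lower (adjusted p under 0.05, edgeR) in Cd209a-positive type 2 dendritic cells than in type 1 dendritic cells, monocytes and class II macrophages, with all genes tested as the background bar and the number tested at the right. Lectins and Fc receptors are mostly higher against type 1 cells (16 of 20) and mostly lower against macrophages (13 of 18), and class II presentation genes are all higher against monocytes (12 of 12).

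Genotype was tested over the 8 libraries with treatment in the model. None of 6302 genes (0%) passed an adjusted p of 0.05 between App NL-G-F and WT in edgeR's quasi-likelihood test, 363 had an unadjusted p under 0.05 (5.76%; 152 higher, 2.41%, and 211 lower, 3.35%), and DESeq2 called 4. The gene nearest the threshold was Rasgef1b, a Ras exchange factor gene, at 87.8, 107, 94.9 and 74.5 CPM in WT mice and 33.6, 28.4, 30.4 and 19.1 CPM for App NL-G-F (log2 difference -1.72, SE 0.20, adjusted p = 0.0517 by edgeR). Its genotypes did not overlap. The glycolytic enzyme gene Eno1 had 360, 381, 232 and 329 CPM in WT mice and 178, 109, 124 and 129 CPM for App NL-G-F (-1.27, SE 0.18, adjusted p = 0.109 by edgeR). The proteoglycan gene Sdc4 had 86.0, 51.7, 47.5 and 44.9 CPM against 33.6, 8.37, 13.8 and 7.17 CPM (-1.98, SE 0.30, adjusted p = 0.109 by edgeR). Both sets of values were again separate by genotype. On the other side, the interferon-inducible gene Ly6a had 184, 22.6, 10.6 and 80.6 CPM in WT mice and 329, 102, 108 and 334 CPM for App NL-G-F (1.82, SE 0.28, adjusted p = 0.109 by edgeR), so that each App NL-G-F library exceeded the WT library of its treatment while the ranges overlapped.

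Of the 12 chemokines tested 5 had an unadjusted p under 0.05 toward lower and 1 toward higher values in App NL-G-F, with a median log2 difference of -0.91 against -0.01 over all genes, and none passed the adjusted test. Cxcl2 stood at 423, 216, 119 and 457 CPM in WT mice and 90.7, 51.9, 105 and 81.2 CPM for App NL-G-F (-1.78, unadjusted p = 0.000285 by edgeR). Tnfsf9 averaged 441 ± 118 CPM in WT mice and 316 ± 131 CPM for App NL-G-F (SD, n = 4), with an adjusted p of 0.687 by edgeR. The high hashtag set supplied more of the WT than of the App NL-G-F barcodes. Of the Cd209a-positive cells tested here it supplied 296 of 316 in WT mice and 183 of 194 for App NL-G-F. With these high-set cells alone 1 gene was called. Leaving out the WT acute colitis or the App NL-G-F acute colitis library gave 30 and 29 calls, and leaving out any one of the other 6 gave 0 to 4.

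Acute colitis was compared with control over both genotypes. Of 6302 genes 12 passed (0.19%), 1 higher (0.0159%) and 11 lower (0.175%) in edgeR's quasi-likelihood test, and 595 had an unadjusted p under 0.05 (9.44%; 255 higher, 4.05%, and 340 lower, 5.4%). Aif1, which encodes the actin-binding protein IBA1, was the one that rose, from 43.0 CPM in WT control and 43.7 CPM in App NL-G-F control to 150 and 166 CPM in acute colitis (log2 difference 1.93, SE 0.23, adjusted p = 0.0237 by edgeR). Its chronic colitis values were 106 and 111 CPM and its food allergy values 58.2 and 69.3 CPM, all above the controls.

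Plscr1, an interferon-inducible phospholipid scramblase gene, had the largest fall of the named genes with a mean level of at least 20 CPM, from 259.8 and 165 CPM in the WT and App NL-G-F controls to 31.3 and 30.1 CPM (log2 difference -2.71, SE 0.27, adjusted p = 0.00955 by edgeR). Fkbp5 and Ddit4, both known to respond to glucocorticoids and stress, fell with it. Fkbp5 went from 117 and 67.2 CPM to 15.1 and 21.8 CPM (-2.32, SE 0.34, adjusted p = 0.0466 by edgeR), and Ddit4 went from 251 and 302 CPM to 62.5 and 75.3 CPM (-1.92, SE 0.25, adjusted p = 0.0286 by edgeR). In all 3 genes both acute colitis libraries lay below both controls. Of the surface receptors, the lectin-like receptor gene Klrb1b fell from 198 and 356 CPM to 65.8 and 33.5 CPM (-2.29, SE 0.36), the inhibitory sialic acid receptor gene Siglece from 155 and 121 CPM to 31.3 and 33.5 CPM (-2.03, SE 0.31), the orphan receptor gene Gpr171 from 162 and 202 CPM to 45.3 and 30.1 CPM (-2.12, SE 0.32), and Il4ra, the IL-4 and IL-13 receptor chain, from 146 and 148 CPM to 41.0 and 31.8 CPM (-1.90, SE 0.30).

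The other genes that fell were the protease inhibitor gene Spint1 (131 and 97.4 CPM to 29.1 and 16.7 CPM), the adaptor subunit gene Ap1s2 (287 and 178 CPM to 87.3 and 58.6 CPM) and Ifitm2, an interferon-inducible membrane protein gene (2512 and 2334 CPM to 987 and 944 CPM). Their log2 differences were -2.20 (SE 0.35), -1.58 (SE 0.21) and -1.25 (SE 0.17). The twelfth, Cd38, lay below the level rule for naming and is given because the count is small: it had 29 and 9 UMIs in the controls against 0 and 1 in acute colitis. Cd209c, the other DC-SIGN family lectin, went from 215 and 202 CPM to 127 and 124 CPM but did not pass (-0.65, unadjusted p = 0.0136 by edgeR).

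The same 12 genes passed when the cells with 10 or more S100a8 and S100a9 UMIs were left out (63 calls in all) and when only high-set cells were used (51 calls). Without the WT control library no gene passed, and without the App NL-G-F control, WT acute colitis or App NL-G-F acute colitis library 40, 28 and 13 passed, of which 7, 5 and 4 were among the 12.

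**Figure D4:**
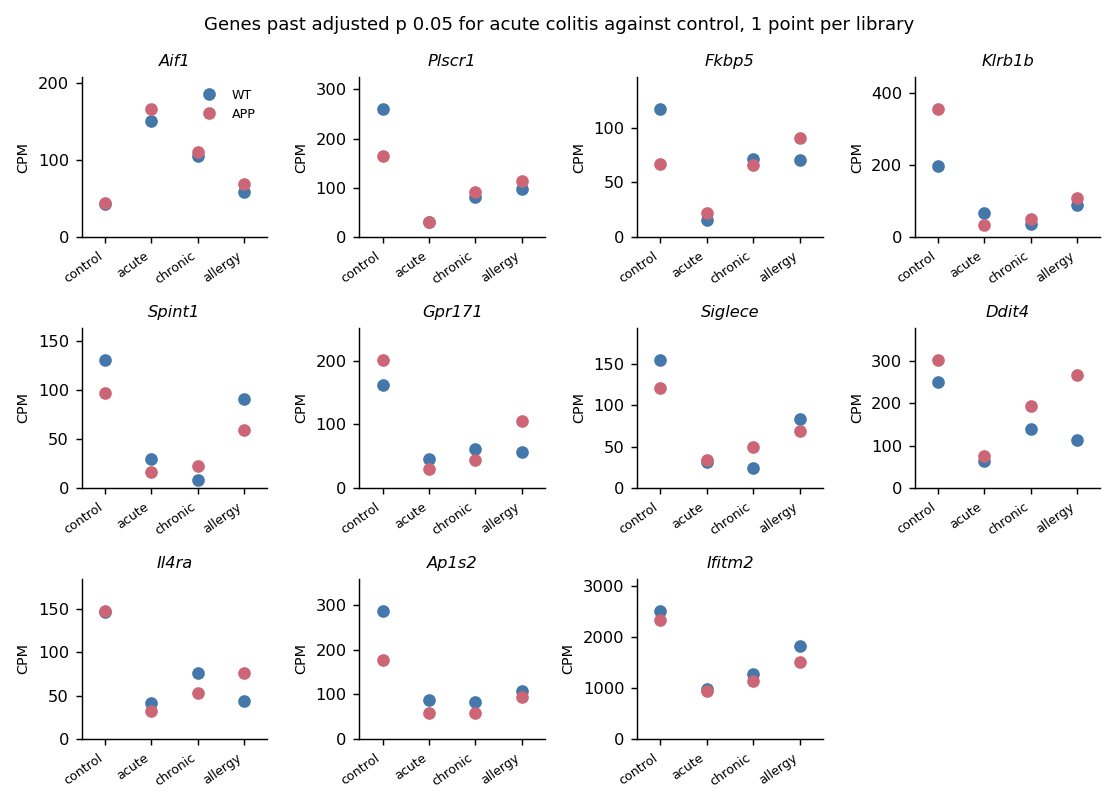
Levels (CPM of UMIs summed over Cd209a-positive type 2 dendritic cells) of 11 of the 12 genes called between acute colitis and control, by treatment, with 1 point per library and the genotypes marked; Cd38 is not drawn. Both acute colitis points lie above both control points for Aif1 and below them for the 10 other genes, and for Aif1 and Plscr1 the chronic colitis points lie between them.

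The chronic colitis and food allergy comparisons share their control libraries with acute colitis, and their values are given side by side rather than as further evidence. In chronic colitis none of 6302 genes passed (0%) in edgeR's quasi-likelihood test, 575 had an unadjusted p under 0.05 (9.12%; 286 higher, 4.54%, and 289 lower, 4.59%), and DESeq2 called 14. Lgals1, the gene of the glycan-binding protein galectin-1, stood at 563 and 715 CPM in the WT and App NL-G-F controls and at 1281 and 1442 CPM in chronic colitis (log2 difference 1.12, SE 0.19, adjusted p = 0.115 by edgeR), without overlap. The thymosin gene Tmsb10 had 2478 and 5098 CPM against 9939 and 8970 CPM (adjusted p = 0.142 by edgeR), and the cell cycle gene Cks1b 39.6 and 30.2 CPM against 145 and 124 CPM (adjusted p = 0.142 by edgeR). Toward lower values the nearest were Spint1 at 7.91 and 22.1 CPM, Klrb1b at 36.9 and 49.7 CPM and Ap1s2 at 81.7 and 58.0 CPM, with an adjusted p of 0.115 each by edgeR. The class II list had 5 of 12 genes with an unadjusted p under 0.05 toward lower values (median log2 difference -0.35). Leaving out the WT acute or App NL-G-F acute library gave 33 calls each, and leaving out App NL-G-F chronic, WT food allergy or App NL-G-F control gave 15, 9 and 7.

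In food allergy none of 6302 genes passed (0%) in edgeR's quasi-likelihood test, 405 had an unadjusted p under 0.05 (6.43%; 190 higher, 3.01%, and 215 lower, 3.41%), and DESeq2 called 2. Ly6c2 stood at 91.2 and 101 CPM in the controls and at 396 and 483 CPM in food allergy (log2 difference 2.21, SE 0.38, adjusted p = 0.384 by edgeR). The interferon-stimulated gene Ifit3 had 6.88 and 13.4 CPM against 40.8 and 95.5 CPM (2.69, SE 0.50, adjusted p = 0.384 by edgeR), and 11 of 15 interferon-stimulated genes tested had a positive difference (median 0.55), 4 of them with an unadjusted p under 0.05 and 1 toward lower values. Neither gene overlapped between food allergy and control, and neither passed. Gpr132, the gene of a lipid-sensing receptor, differed by -1.30 (SE 0.25, adjusted p = 0.384 by edgeR) and Ap1s2 by -1.18 (SE 0.20). Leaving out the WT acute or App NL-G-F acute library gave 20 and 18 calls, and leaving out any one of the other 6 gave 0 to 2.

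Cell cycle genes ran higher in treated than in control libraries in both genotypes without a call. The 23 genes of the list summed to 1316, 2062, 3464 and 1446 CPM in WT mice and to 1199, 2787, 2931 and 3062 CPM for App NL-G-F, so that each control was the lowest of its genotype. In acute colitis 22 of 23 had a positive log2 difference (median 1.21, against 0.01 over all genes), in chronic colitis 22 (median 1.63) and in food allergy 19, and 11, 19 and 6 of them had an unadjusted p under 0.05. Stmn1, a microtubule regulator of dividing cells, stood at 94.6, 147, 306 and 124 CPM in WT mice and 53.7, 320, 345 and 330 CPM for App NL-G-F. Cells with an Mki67 UMI made up 10.3, 20.2, 21.4 and 14.7% in WT mice and 12.5, 16.7, 20.5 and 16.3% for App NL-G-F.

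Markers of other cells moved between the same libraries. Cells with a Ly6c2 UMI made up 10.3, 13.8, 42.9 and 31.4% of the Cd209a-positive cells in WT mice and 15.0, 20.8, 17.9 and 34.9% for App NL-G-F. The 12 neutrophil genes summed to 27.5, 4329, 25246 and 35345 CPM in WT mice and 57.1, 14644, 96.7 and 201 CPM for App NL-G-F, and 20 cells with 10 or more S100a8 and S100a9 UMIs lay 13 in WT food allergy, 4 in WT chronic colitis, 2 in App NL-G-F acute colitis and 1 in WT acute colitis. Of these 20 cells 16 had a Ly6c2 UMI, against 98 of the other 490 (20.0%). In other gates the same sum also varied by library, from 5.86 to 18982 CPM in type 1 dendritic cells and from 158 to 89969 CPM in macrophages. B and plasma cell genes summed to 105 to 193 CPM except for 1173 CPM in WT chronic colitis, and the summed class II genes were lowest there (47537 CPM) and highest in WT control (80365 CPM). The part of these other-cell transcripts in the values of the libraries that carry them was not tested beyond leaving out cells. The S100a8- and S100a9-rich cells were left out in 1 setting. Another, the stricter lineage exclusion, kept the 404 cells without a UMI of Cd3d, Cd3g, Trac, Cd79b, Ms4a1, Ly6g, Xcr1 or Clec9a.

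**Figure D5:**
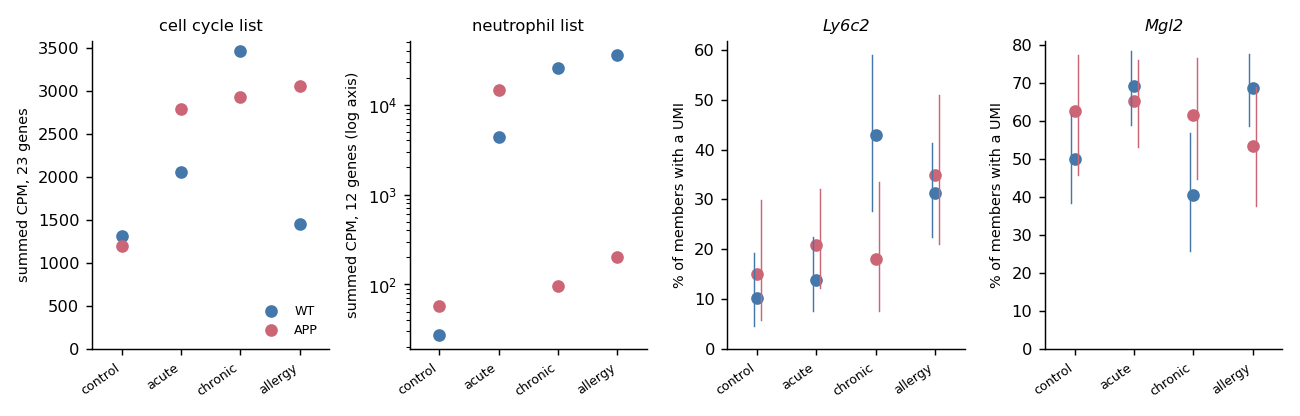
Cell cycle list sum and neutrophil list sum (CPM, the second on a log axis) and percent of Cd209a-positive type 2 dendritic cells with a Ly6c2 or an Mgl2 UMI (with 95% exact binomial intervals), by treatment, for WT and App NL-G-F libraries. The cell cycle sum is lowest in control in both genotypes, and the neutrophil sum is 4329 CPM or more in WT acute colitis, WT chronic colitis, WT food allergy and App NL-G-F acute colitis.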

How the data were processed

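Droplet counts of CD45.2+ brain cells were analysed in 8 libraries, 1 per genotype and treatment. The authors deposited raw UMI counts per gene and barcode for 32285 genes and 4 hashtags per library; the submitters' processing notes name Cell Ranger 6.1.2, the count matrices' headers version 4, and the genome was GRCm38 (mm10).

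Barcodes with at least 500 gene UMIs, 200 genes, at most 5% mitochondrial UMIs and a top hashtag of at least 50 counts and 3 times the second were kept. Barcodes with several hashtags were left out, no doublet caller was run, and doublets of 1 hashtag remain. The cells, their marker genes, the gene lists and the comparison gates were chosen with earlier results of these data known.

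UMIs were summed per library and gate and tested with edgeR 4.0.16 (R 4.3.3; TMM scaling, filterByExpr, quasi-likelihood test, Benjamini-Hochberg adjustment at 0.05): genotype and treatment over 8 libraries, gates with the library as a block. DESeq2 1.42.0 was an alternative. An adjusted p named as by edgeR comes from these fits. With 1 library per condition, the genotype and treatment fits have no replicate of a condition. Shares were compared by exact two-sided permutation tests (scipy 1.17.1); Clopper-Pearson 95% intervals and floors of 3 UMIs cover counting error only. The statistics were tested on simulated data. Genes were named by list or, outside the lists, up to 10 per direction with the largest difference past the threshold (mean level at least 20 CPM, or 50 CPM for gates with the same direction in 8 libraries), else the 3 with the smallest p. Whether counting used strand is not given in the sources used here. Positions and coding sequences come from the reference annotation of the same build. Clec7a, Mx1, Marchf1 and Sting1 were listed but were not in the feature table.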

Additional observations from a re-analysis of the deposited data

Results flagged for a closer look

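Barcodes with several hashtags, which no comparison above uses, held 46 of 4385 that met the same gene rule (1.05%, 95% exact binomial interval 0.769 to 1.40), beside 1.10% of the barcodes with 1 hashtag. The WT food allergy library, where the smallest percent of barcodes met the hashtag rule, had 24 of 1227 (1.96%), and the other libraries had 0.258 to 1.86%. Of 4 groups of hashtag shares tested for a sample far from the others, none had one.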

How the results depend on the processing

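No analysis paired by replicate number was possible, because each condition has 1 library and so no replicate numbers to match. The library is already a block between gates. With the genotypes paired by treatment, chosen after seeing the data, the share was lower in App NL-G-F in 4 of 4 pairs (exact two-sided permutation p = 0.125 over sign flips, the smallest 4 pairs can give). Within the high set the acute and chronic colitis pairs ran the other way. The App NL-G-F minus WT share was below 0 in all 12 other settings. With myeloid cells as the denominator, which is another base, it was -2.60 points (means 2.79% against 5.39%). In the rest of the 12 it ran from -0.847 (at least 1000 gene UMIs) to -0.334 points (high set only). When 1 library was left out it ran from -1.05 (without WT chronic colitis) to -0.576 points (without WT food allergy). Treatment minus control shares turned direction in these settings, in points: requiring both Clec10a and Mgl2, WT chronic 0.0949, App NL-G-F chronic -0.00394 and App NL-G-F allergy -0.0110; stricter lineage exclusion, App NL-G-F allergy -0.0306; thinned cells, App NL-G-F chronic -0.329 and allergy -0.135; myeloid cells as the denominator, WT acute -3.81 and WT allergy -5.77; low set only, WT acute -0.490, WT chronic 0.805 and WT allergy -0.490; high set only, App NL-G-F chronic -0.0935. Leaving out 1 hashtag group moved WT acute from -0.274 to 0.998, WT chronic from -0.381 to 0.0928, WT allergy from 0.0489 to 1.38, App NL-G-F acute from 0.329 to 1.76, chronic from -0.186 to 0.220 and allergy from -0.185 to 0.286 points. These treatment differences are between means of hashtag groups. With myeloid cells as the denominator, the share of the whole WT acute colitis library rose above its control. The causes were not tested.

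Counts of called genes moved with the processing. For genotype (0 in the report) they were 1 with library size only, 4 with DESeq2, 127 without a filter, 12 with stricter lineage exclusion, 1 with at least 2 Cd209a UMIs, 9 with hashtag sums, 2 without the treatment term, 1 with the high set only and 5 without the S100a8- and S100a9-rich cells. For acute colitis (12) they were 32 with library size only, 198 without a filter, 69 with stricter exclusion, 190 with hashtag sums, 120 with hashtag sums and an immediate-early term, 51 with the high set only and 63 without the S100-rich cells. For chronic colitis (0) they were 14 with DESeq2, 186 without a filter, 14 with stricter exclusion, 105 and 20 with hashtag sums without and with the immediate-early term, 15 with the high set and 18 without the S100-rich cells; for food allergy (0), 2 with DESeq2, 104 without a filter, 6 with hashtag sums, 1 with the high set and 4 without the S100-rich cells. The last 2 settings were chosen after seeing the data. Leaving out 1 library gave 0 to 30, 0 to 40, 0 to 33 and 0 to 20 calls for genotype, acute colitis, chronic colitis and food allergy, and 2794 to 2956, 3856 to 4731 and 2259 to 2880 between gates. Thinning gave 996, 1221 and 1170 calls among 2990, 3212 and 2630 genes, fewer than the genes tested in the report. Of 198 alternative values for the 11 acute colitis genes 166 kept their call, 32 lost it (11 without WT control, 8 without App NL-G-F acute, 6 without WT acute) and none reversed, and 894 for the gate genes kept theirs. Libraries of 39 to 102 cells limit the detection of small differences.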
